A study of Mus musculus with 2 samples.

Results

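The genes described here belong to the mouse major histocompatibility complex (MHC), called H2, and to the machinery that loads and controls its products. They are the GENCODE M21 protein-coding genes on chromosome 17 whose symbol begins with H2-, 34 in number, plus B2m, Tap1, Tap2, Tapbp and Ciita. That gave 39 of the 21938 protein-coding genes in the annotation. By role they were 2 classical class I genes, 22 non-classical class I genes, 4 classical class II genes, 5 non-classical class II genes, the 5 loading and transactivator genes, and H2-Ke6, which encodes a hydroxysteroid dehydrogenase and carries an H2 symbol for its place on the chromosome.

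The study profiled H3K4me3, trimethylation of lysine 4 on histone H3, by ChIP-seq in MEL cells, an immortalized mouse erythroleukaemia line. It holds 2 replicate libraries of 1 untreated group and no second condition. Both libraries are labelled with the same biosample record, so it is unclear whether the spread between them covers separate cultures. The labels name no mouse strain other than MEL, H2 genes differ in sequence and number between strains, and the peaks were placed on mm10, which derives from C57BL/6J. The effect of that on the values below was not tested.

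Class I molecules carry peptides from the inside of the cell to CD8 T cells. They are assembled with beta-2-microglobulin, and their peptides are cut by the proteasome, pumped into the endoplasmic reticulum by TAP and loaded with the help of tapasin. Class II molecules carry peptides from endosomes to CD4 T cells, mainly on B cells, dendritic cells, macrophages and thymic epithelium, and their genes depend on the transactivator Ciita. H3K4me3 marks nucleosomes around the start sites of genes that are active or open to activation.

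Marked genes are those with a replicated peak, one that the authors kept after comparing both libraries, within 1000 bp of any annotated transcript start. By that rule 16 of the 39 genes were marked, or 41.0%, against 50.3% of all protein-coding genes. The same 16 genes were marked in the replicate 1 list, where 50.4% of all genes were, and in the replicate 2 list, where 50.9% were. The call did not differ between the replicates for any of the 39 genes. At the marked genes that agreement was partly built in, since the replicated list was made from the replicate and pooled lists. When each peak was given only to the gene whose start was nearest, 47.6% of all genes stayed marked, and the same 16 of 39 did. The lists hold no read counts. Depth is therefore unknown, and too few reads over a promoter could also leave it without a peak.

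The identity of the cells was checked by marker genes. Against 50.3% over all genes, 8 of 10 erythroid genes were marked, Gata1, Klf1 and Tal1 among them, while Slc4a1 and Epb42 were not, although Epb42 had a peak in each replicate list. Of 6 B cell genes and 3 thymic epithelium genes none was marked. Of 7 dendritic cell and macrophage genes Zbtb46 and Batf3 were marked, and of 5 T cell genes Cd3d was. Low-CpG promoters, a class defined below with 16.6% marked over all genes, were held by 4 of the 6 B cell genes. They were also held by 2 of the 3 thymic epithelium, 5 of the 5 T cell and 4 of the 7 dendritic cell and macrophage genes. Of the 10 erythroid genes 8 held them.

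The sequences upstream of 8 of the genes are shown first, because the H2 genes are close copies of each other and the mark separated some copies with similar promoters. They were taken from RefSeq on GRCm38.p6, the build of mm10, and run 5′ to 3′ on the strand of the gene, ending just before the annotated start. RefSeq promoter windows, of 250 bases before and 50 after a start, were matched for 34 of the 39 genes, and no window was matched for Ciita, H2-Ab1, H2-Q1, H2-T24 or Tap2. Bases that GENCODE places in an exon of the same gene were left off, which is why H2-D1 is not shown. Capitals mark matches, on either strand, to 4 letter patterns. These are GGGGANTCC, the NF-kB site called enhancer A, and AANNGAAA, a core that interferon regulatory factors bind. The others are AGNNACAG, a core of the X1 box, and CCAAT, the core of the Y box that NF-Y binds.

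The first sequence is that of H2-K1, a classical class I gene that was marked, at chr17:34000348-34000597 on the minus strand.
H2-K1: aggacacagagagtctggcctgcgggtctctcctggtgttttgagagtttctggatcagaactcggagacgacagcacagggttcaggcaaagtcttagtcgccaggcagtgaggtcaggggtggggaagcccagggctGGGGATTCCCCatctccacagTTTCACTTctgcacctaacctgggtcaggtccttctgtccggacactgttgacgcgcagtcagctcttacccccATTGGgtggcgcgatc
Replicated peaks covered 205 of these 250 bases. The capitals hold, in order, matches to the enhancer A pattern, here on both strands, to the interferon regulatory factor core and to the Y box core.

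The next 4 are Q genes, all on the plus strand: H2-Q4 at chr17:35379367-35379616, H2-Q6 at chr17:35424600-35424849, H2-Q7 at chr17:35438905-35439154 and H2-Q10 at chr17:35469839-35470088. They are shown together because H2-Q4 was the marked Q gene and the other 3 had no peak.
H2-Q4: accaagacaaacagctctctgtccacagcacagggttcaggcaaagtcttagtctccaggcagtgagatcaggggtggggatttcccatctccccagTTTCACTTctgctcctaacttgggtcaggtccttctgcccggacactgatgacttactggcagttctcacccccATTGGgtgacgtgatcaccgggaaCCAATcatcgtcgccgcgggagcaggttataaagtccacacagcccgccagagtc
H2-Q6: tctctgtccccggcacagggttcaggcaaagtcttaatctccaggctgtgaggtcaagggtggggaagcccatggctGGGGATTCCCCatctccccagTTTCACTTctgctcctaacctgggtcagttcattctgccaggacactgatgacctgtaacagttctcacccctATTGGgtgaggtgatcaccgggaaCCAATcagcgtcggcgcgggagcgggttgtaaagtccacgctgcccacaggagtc
H2-Q7: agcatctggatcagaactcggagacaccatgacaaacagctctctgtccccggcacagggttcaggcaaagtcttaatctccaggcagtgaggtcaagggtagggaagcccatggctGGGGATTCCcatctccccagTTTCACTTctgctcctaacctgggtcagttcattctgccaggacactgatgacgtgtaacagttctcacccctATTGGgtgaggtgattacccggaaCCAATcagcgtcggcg
H2-Q10: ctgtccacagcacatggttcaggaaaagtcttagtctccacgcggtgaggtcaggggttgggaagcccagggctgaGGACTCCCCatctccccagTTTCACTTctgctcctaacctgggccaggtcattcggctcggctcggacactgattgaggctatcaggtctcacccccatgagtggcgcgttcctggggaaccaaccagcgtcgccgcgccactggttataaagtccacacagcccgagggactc
A replicated peak covered all 250 bases of H2-Q4 and no base of the other 3. Over the whole RefSeq windows, H2-Q4 and H2-Q6 were identical at 78.4% of aligned positions, and H2-Q4 and H2-Q10 at 72.4%. Among the class I windows, that of H2-Q10 was closest to that of the marked classical gene H2-D1, with 82.6% identity over 310 aligned positions.

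The last 3 are H2-M3, the gene with the strongest replicated peak of the set, at chr17:37269984-37270219 on the plus strand; H2-Oa, a marked class II gene, at chr17:34092129-34092339 on the plus strand; and H2-Aa, an unmarked class II gene, at chr17:34287824-34288073 on the minus strand.
H2-M3: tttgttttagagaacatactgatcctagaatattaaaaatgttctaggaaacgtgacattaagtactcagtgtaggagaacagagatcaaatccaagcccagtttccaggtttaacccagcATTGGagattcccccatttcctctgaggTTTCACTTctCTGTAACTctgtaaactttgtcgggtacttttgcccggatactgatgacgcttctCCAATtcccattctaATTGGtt
H2-Oa: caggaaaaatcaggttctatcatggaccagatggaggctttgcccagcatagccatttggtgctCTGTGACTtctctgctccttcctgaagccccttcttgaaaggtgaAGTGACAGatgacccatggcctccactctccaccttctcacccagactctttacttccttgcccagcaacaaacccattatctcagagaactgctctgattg
H2-Aa: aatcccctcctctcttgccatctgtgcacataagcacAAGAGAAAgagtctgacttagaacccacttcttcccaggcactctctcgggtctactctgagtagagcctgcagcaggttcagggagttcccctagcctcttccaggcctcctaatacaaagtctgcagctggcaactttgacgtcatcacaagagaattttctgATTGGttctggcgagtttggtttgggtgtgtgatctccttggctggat
A replicated peak covered all 236 bases of H2-M3 and all 211 bases of H2-Oa, and none of the 250 bases of H2-Aa.

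Across the 34 genes with a window, the enhancer A pattern was found in 5, all of them class I: H2-K1 and H2-D1, which were marked, and H2-Q6, H2-Q7 and H2-Q10, which were not. It was found in 1.19% of the 32851 RefSeq windows. H2-Q4 reads ggggatttccc where H2-K1 and H2-Q6 read ggggattcccc, a near match with a t in place of a c. Whether NF-kB binding differs between such sites was not tested. A stricter pattern for the interferon-stimulated response element, GAAANNGAA, was found in 3 of the 34 genes, close to the 8.56% share of all windows. They were B2m, H2-T22 and H2-T23, or 3 of 14 marked genes and 0 of 20 unmarked ones. The looser core AANNGAAA, added after the sequences were seen and able to overlap the stricter pattern, was found in 10 of 14 marked and 10 of 20 unmarked genes, and in 23.9% of all windows. CCAAT was found in 14 of 14 marked and 17 of 20 unmarked genes, against 37.4% of all windows. AGNNACAG was found in 4 of 14 and 6 of 20, against 25.9%, and TGACG, a core of the X2 box left in lower case above, in 7 of 14 and 7 of 20, against 20.8%. H2-Aa had TGACG at -74 from its start and CCAAT at -48, without AGNNACAG, while H2-Oa had AGNNACAG without TGACG. Each pattern is a fixed string, so a box with other letters is missed and a match need not be a box. In these counts marked is a call on the gene, at any of its starts, and not on the window. The windows of the marked genes H2-DMa and H2-DMb2, which begin at chr17:34125268 and chr17:34144999, held no base of a replicated peak. A match describes the letters in a window and not binding by a factor.

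Both classical class I genes, whose products present peptides to CD8 T cells on nearly all nucleated cells, were marked. H2-K1 (ENSMUSG00000061232) lies on the minus strand at chr17:33996017-34000347. Its strongest peak had a signal value of 14.0 in replicate 1, 20.3 in replicate 2 and 16.8 in the replicated list. Here and below, unless another peak is named, a value is that of the strongest peak at a start in each list. That peak was not the same in every list at H2-K1, H2-D1, H2-Ob, H2-DMa, H2-T23, H2-T24, Tap2, Tapbp and H2-Ke6. At H2-K1 the replicate 1 value came from the peak before the start, and the peak after it had 9.86 there. The signal value is a score the authors gave each peak, and it was used here only to rank peaks within a list. H2-K1 ranked 3035 of the 11037 marked genes in the replicated list, where the median signal was 13.8.

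H2-D1 (ENSMUSG00000073411) lies on the plus strand, beside the Q genes, at chr17:35262730-35267499. Its strongest peak had a signal of 8.06 in replicate 1 and 14.5 in replicate 2. In the replicated list it had 11.4 and ranked 7723. H2-K1 ranked above H2-D1 in each of these lists, with ranks of 3634 against 9317 in replicate 1 and of 2386 against 6422 in replicate 2. No error over cultures stands behind that order beyond these 2 libraries.

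Of the 22 non-classical class I genes 5 were marked, against 50.3% of all genes: H2-Q4, H2-T24, H2-T23, H2-T22 and H2-M3. By group the marked genes were 1 of 6 Q genes, 3 of 4 T genes and 1 of 12 M genes. Of the 12 M genes 11 had low-CpG promoters, a class with 16.6% marked over all genes, and none of the 11 was marked. H2-M3, the marked M gene, had an intermediate-CpG promoter, a class with 53% marked over all genes. Of the 6 Q genes 5 had high-CpG promoters, with 79.8% marked over all genes, and 3 of the 4 T genes had low-CpG promoters.

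H2-M3, whose product presents N-formylated peptides such as those of bacteria and mitochondria, had the strongest peak of the 39 genes in the replicated and replicate 2 lists, while B2m did in replicate 1. The peak spans chr17:37269733-37271217, over the start and first exon of the gene. Its signal was 16.4 in replicate 1, 37.9 in replicate 2 and 32.3 in the replicated list. It ranked 10 of 11037 in the replicated list and 12 in replicate 2, but 1876 in replicate 1, so the high rank rests on replicate 2. The domain was of ordinary width at 1485 bp, rank 9011. A domain is a run of replicated peaks joined across gaps of up to 1000 bp, and its median over all marked genes was 2258 bp.

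Among the Q genes, H2-Q4 was the marked member, with a single replicated peak at chr17:35379028-35380456. Its signal was 14.5 in replicate 1, 30.1 in replicate 2 and 22.6 in the replicated list, rank 614. As with H2-M3, the rank was higher in replicate 2, at 210, than in replicate 1, at 3268. An antisense transcript, Gm11131, has a start within reach of the same peak, so the peak cannot be given to H2-Q4 alone. H2-Q1, H2-Q2, H2-Q6, H2-Q7 and H2-Q10 had no peak in any list. H2-Q7 encodes the Qa-2 antigen, and H2-Q10 a secreted protein made mainly in liver. Their nearest replicated peaks lay between 18295 and 58699 bp from a 5′-most start.

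The marked T genes were H2-T23, H2-T22 and H2-T24, which lie beside each other. H2-T23 encodes Qa-1, the ligand of the NKG2 receptors of natural killer cells. Its signal was 11.1 in replicate 1, 14.6 in replicate 2 and 13.7 in the replicated list, rank 5608. H2-T22, whose product is recognised by some gamma delta T cells, had 9.05, 9.89 and 9.66 in the same order, rank 9045, in peaks shared with the protein-coding gene Gm6034. H2-T24 had 9.59, 6.42 and 6.70, rank 10356. H2-T24 was thus stronger by rank in replicate 1, at 8083, than in replicate 2, at 10559, though on different peaks. H2-T3, the thymus leukaemia antigen gene at the far side of the T genes, had no peak, the nearest lying 35253 bp from a start. Of the 11 H2 entries annotated as pseudogenes, which the rule does not take in, 2 had a peak at a start, and both lay among the T genes: H2-T-ps with a signal of 7.92 and H2-T10 with 6.11.

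Besides H2-M3, the M genes were unmarked. All 6 H2-M10 genes, known from the vomeronasal organ, lacked a peak, as did H2-M1, H2-M2, H2-M5, H2-M9 and H2-M11. H2-M5 came nearest to a peak of all unmarked genes in the set, at 2882 bp from a start. H2-M11 was farthest, at 274035 bp.

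The 4 classical class II genes, H2-Ab1, H2-Aa, H2-Eb1 and H2-Eb2, which encode the chains that present peptides to CD4 T cells, were all unmarked, where 16.6% of all genes with low-CpG promoters like theirs were marked. None had a peak within its gene body in any of the 4 lists, and the distance from a start to the nearest replicated peak ran from 17506 bp at H2-Ab1 to 73118 bp at H2-Eb2. Ciita, the transactivator on chromosome 16 on which these genes depend, had no peak either. The nearest lay 51135 bp from any of its 8 annotated starts.

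Of the 5 non-classical class II genes 4 were marked, against 50.3% of all genes, and 4 of the 5 had low-CpG promoters. Their products act inside the cell, where H2-DM exchanges peptides on class II molecules and H2-O holds H2-DM back. H2-Oa, the alpha chain of H2-O, had a signal of 11.7 in replicate 1, 13.0 in replicate 2 and 12.8 in the replicated list, rank 6429, in a single peak at chr17:34092092-34093041. H2-Ob, its beta chain, had 7.61, 7.74 and 7.64 in the same order, rank 10090. H2-DMb2 had 6.35, 6.40 and 5.16, rank 10682, the lowest of the 16 marked genes. H2-DMb1, the neighbouring beta chain copy, had no peak, the nearest lying 8159 bp from a start.

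H2-DMa, the alpha chain of H2-DM, had the widest domain of the set at 7708 bp, rank 65 of 11037. Unmerged, its strongest peak measured 2991 bp, and with gaps of up to 2500 bp joined, H2-Ke6 was wider, at 9712 bp. H2-DMa had a signal of 12.3 in replicate 1, 15.6 in replicate 2 and 14.0 in the replicated list. Its first 3 replicated peaks were also within 1000 bp of a start of Brd2, a bromodomain gene that overlaps it, so the width and the signal cannot be given to H2-DMa alone. A separate peak at chr17:34135565-34136264, shared with no other gene, had its summit 58 bp from an internal H2-DMa start. Its signal was 8.53.

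Of the loading and transactivator genes, Tapbp, Tap1, Tap2 and B2m were marked, and Ciita was not, against 50.3% of all genes. B2m, the light chain of class I on chromosome 2, had a signal of 19.3 in replicate 1, 13.0 in replicate 2 and 11.3 in the replicated list. Its rank was 721 in replicate 1, 7566 in replicate 2 and 7762 in the replicated list, so B2m stood higher in replicate 1, the opposite of H2-M3 and H2-Q4. Its domain spanned 3109 bp.

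Tapbp, which encodes tapasin, had 13.7, 15.7 and 13.1 in the same order, rank 6148. The replicate values came from a peak at internal starts, and the replicated value from a peak at the 5′ end. Tap1 and Tap2 encode the chains of the peptide pump. Tap1 had 9.14, 13.7 and 12.1, rank 7042, and Tap2 had 8.25, 11.1 and 9.09, rank 9418. The peaks over the Tap1 start were shared with Psmb9, an immunoproteasome subunit gene read in the other direction, and those at the 5′ end of Tapbp with Zbtb22.

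H2-Ke6 had a signal of 6.98 in replicate 1 and 12.6 in the replicated list, rank 6591. In replicate 2 its strongest peak, at 25.0, had its summit 1912 bp from the nearest H2-Ke6 start, and the peak over the main start had 15.7. The peak at 25.0 overlapped the replicated peak at a start of the neighbouring gene Ring1, chr17:34023982-34025705, with a signal of 18.9. That replicated peak was not within reach of an H2-Ke6 start, so the 25.0 cannot be given to H2-Ke6 alone.

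**Figure D1:**
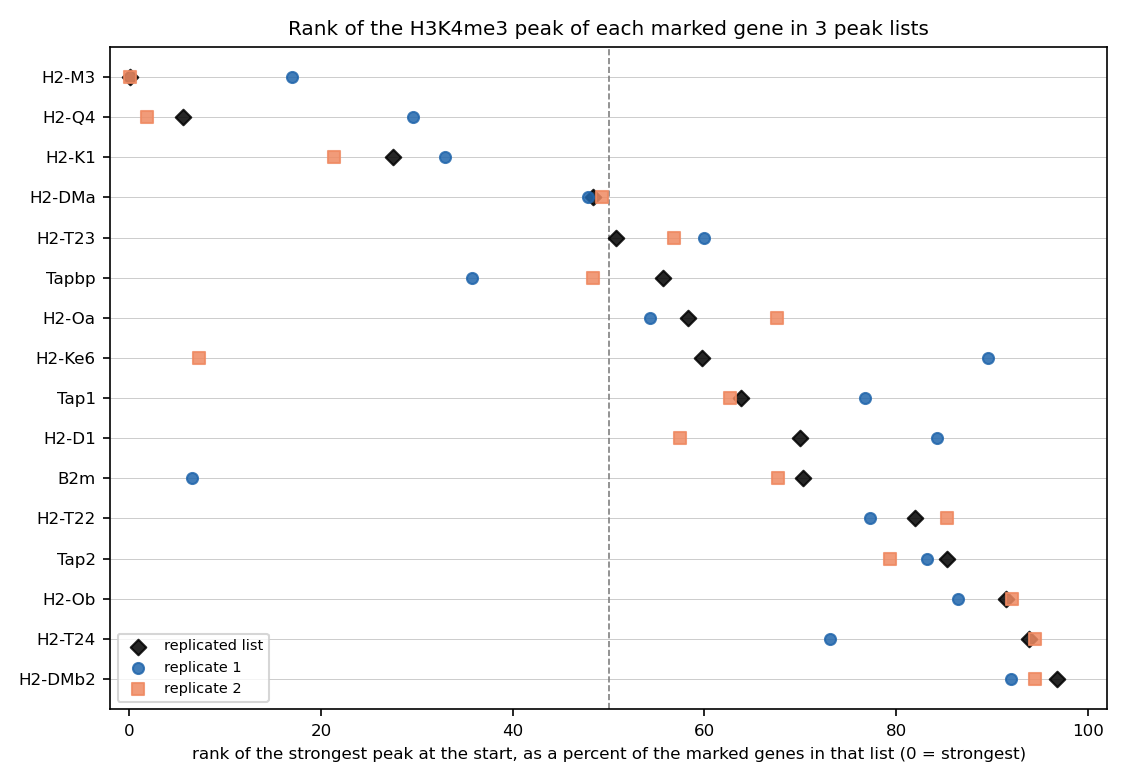
Rank of the strongest H3K4me3 peak at a start of each of the 16 marked genes, as a percent of the marked genes in the same list (horizontal axis, 0 is strongest), for replicate 1 (circles), replicate 2 (squares) and the replicated list (diamonds). H2-M3 and H2-Q4 lie far left in the replicated list. B2m and H2-Ke6 lie farthest apart between the replicates, and 12 of 16 diamonds lie right of the dashed median line. The replicate 2 rank of H2-Ke6 comes from a peak that lies at the neighbouring gene Ring1. At some genes, such as H2-Ke6, H2-K1, H2-D1, H2-T24 and Tapbp, the ranks come from different peaks in different lists.

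The 16 marked genes were of middling to low signal as a group. Their median was 12.3 against 13.8 over all marked genes, with 4 of 16 above that median. Their median domain was 1484.5 bp against 2258 bp, with 5 of 16 above. These figures describe genes that were neighbours and partly shared peaks, since 4 of the 16 had a peak in common with another protein-coding gene.

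Several of the marked genes had more than 1 peak around the start, split by gaps. Of the 16, 11 had 2 or more peaks within reach of a start, or 68.8%, against 67.7% of all marked genes. The 5′-most start itself lay inside a peak at 10 of 16, or 62.5%, against 55.3%. The summit of the strongest peak lay in an exon of the gene at 9, in an intron at 5 and upstream of the gene at 2, those being H2-DMb2 and H2-T22. The median summit was 194 bp downstream of the 5′-most start, against 226 bp over all marked genes.

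At H2-K1 the start fell in a gap of 135 bp in which no 32-base word was repeated elsewhere in the genome, between peaks with 17.9% and 27.8% of repeated words. At H2-D1 the gap measured 85 bp and at B2m 194 bp. H2-T22 had a gap of 562 bp across its start, with 40.7% of repeated words in it, and Tapbp had 689 bp with none. At H2-T23 the gaps measured 45 and 199 bp and held 75.6% and 63.3% of repeated words, more than the 30.95% to 45.3% in its 3 peaks. A gap in such sequence and a real loss of signal cannot be told apart from peak lists.

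**Figure D2:**
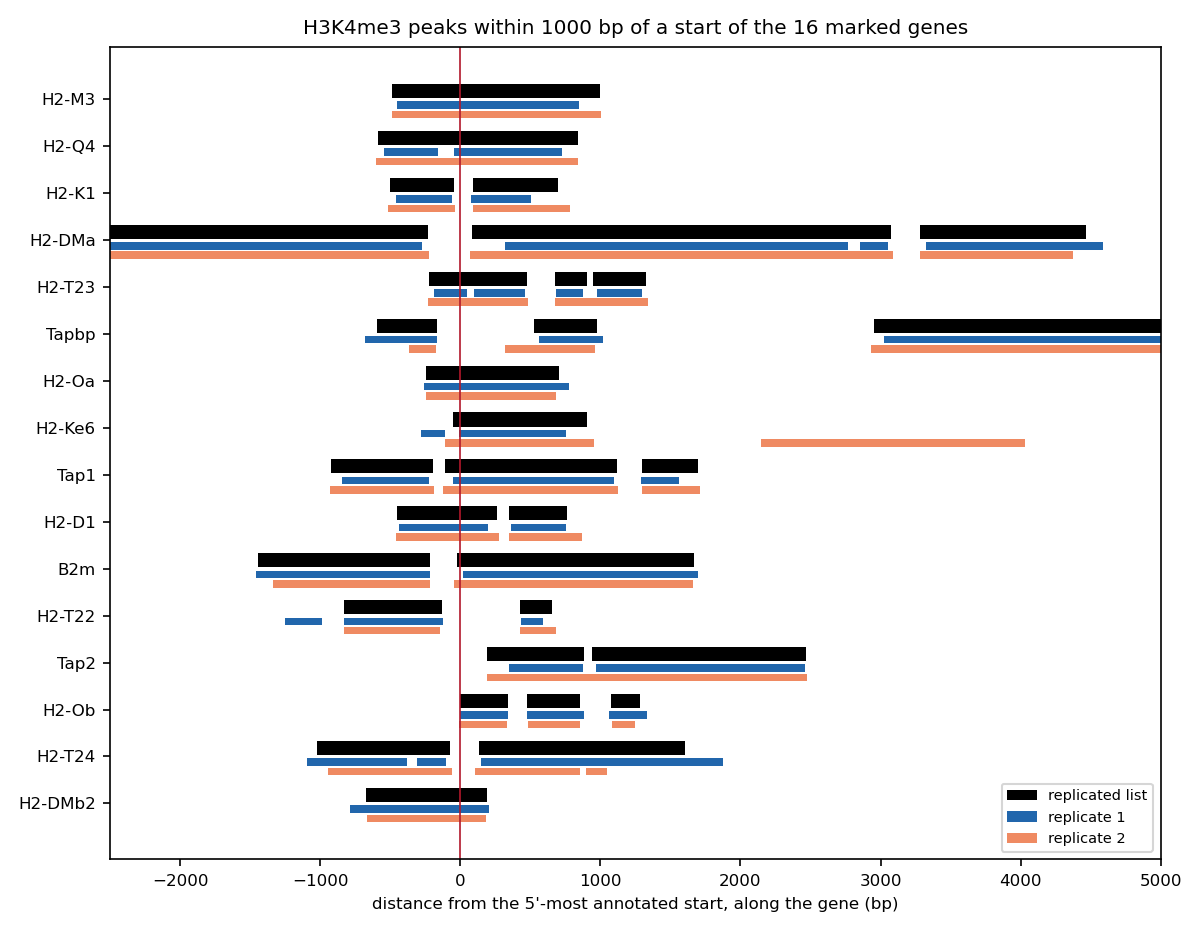
Peaks within 1000 bp of a start of the 16 marked genes, drawn by distance in bp from the 5′-most start along the direction of the gene (red line), for the replicated list (black), replicate 1 (blue) and replicate 2 (orange). Genes are in order of rank, and the axis cuts off the outer peaks of H2-DMa and Tapbp. H2-M3 and H2-Q4 have an unbroken replicated peak over the start, while H2-K1, H2-T22, H2-T24 and some others have peaks to either side of it.

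Repeated sequence bears on these genes because a read that maps to several places may be discarded. How the authors treated such reads was not stated in the labels or notes. The measure was the percent of 32-base words within 500 bp on either side of the 5′-most start that had a further copy in the genome, on either strand. Its median was 8.14% over the 39 genes and 0 over all protein-coding genes. The highest values were 75.9% at H2-Q6 and 63.5% at H2-Q7, both unmarked, and 56.6% at H2-T23, which was marked.

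Sharing was then counted among the H2 entries alone. H2-Q6 shared 72.2% of its promoter words with the pseudogene H2-Q5, and H2-Q7 shared 51.3% with it. H2-T22 shared 39.5% with H2-T10, and H2-T23 shared 32.5% with H2-T-ps. The classical genes H2-K1 and H2-D1 shared 9.28% with each other, and H2-M10.3 and H2-M10.5, both unmarked, shared 25.4%. H2-DMb1, H2-T3 and H2-Ob shared no promoter word with another H2 promoter, although 28.9%, 22.2% and 9.79% of their words were repeated. Words whose copies all lay within the H2 region of chromosome 17 made up 28.9% at H2-DMb1, 4.85% at H2-T3 and 0 at H2-Ob. All repeated words of H2-DMb1 thus had their copies in that region, outside the promoters compared.

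Sorted by this measure, 12 of 24 genes with under 10% of repeated words were marked, against 56.4% of all genes in that range. From 10% to under 50% it was 3 of 12, against 33.2%, and at 50% or more it was 1 of 3, against 6.25%. Over all genes the marked share was thus lower where more of the promoter was repeated, and the part of repeated sequence in the missing peaks of H2-Q6 and H2-Q7 was not tested. At the classical class II genes repeated words were few, from 0 to 4.85%, and at Ciita they were 1.55%. H2-Q10 at 9.79% and H2-Q4 at 9.48% had nearly the same share, and H2-Q4 was the marked one.

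The marked share also differed by promoter CpG content. A promoter was called high-CpG at an observed to expected ratio of at least 0.6 with at least 50% G and C, and low-CpG under a ratio of 0.4. The class was read within 500 bp of the 5′-most start, which was not always the marked start. At Tap2 and H2-DMa the strongest summit lay 1089 and 1121 bp downstream of it. Of the 11 high-CpG genes 7 were marked, against 79.8% of all such genes, and the other 4 were H2-Q2, H2-Q6, H2-Q7 and H2-Q10. Of the 4 intermediate genes H2-D1, H2-M3 and H2-T23 were marked and H2-Q1 was not, against 53% marked among all such genes. Of the 24 low-CpG genes 6 were marked, against 16.6%: H2-Oa, H2-Ob, H2-DMb2, H2-T22, H2-T24 and Tap2. All 5 unmarked Q genes had intermediate or high CpG content, at ratios between 0.518 and 0.711, whereas all 4 classical class II genes were low, between 0.131 and 0.247. The H2-M10 genes were low too, between 0.124 and 0.227.

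**Figure D3:**
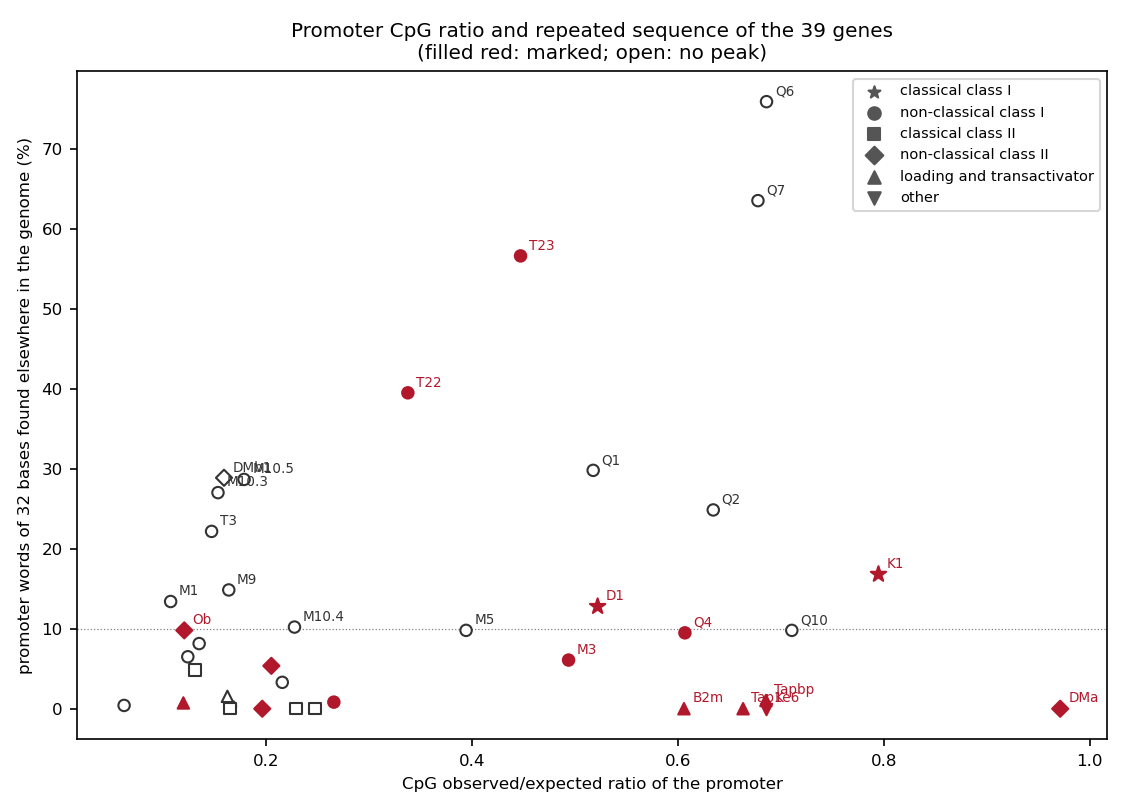
CpG observed to expected ratio of each promoter (horizontal axis) against the percent of its 32-base words with a further copy in the genome (vertical axis) for the 39 genes, with shapes for the gene classes, red filled symbols for marked and open symbols for unmarked genes. The unmarked Q genes sit at ratios above 0.5, H2-Q6 and H2-Q7 at the top, while the classical class II genes sit at the lower left with the M10 genes.

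Most of the unmarked genes lay in long stretches without any replicated peak. The shortest held H2-DMb1, at 21.5 kb, and H2-M5, at 33.3 kb, lengths that 34.0% and 27.0% of stretches reached. The classical class II genes sat together in a stretch of 158.6 kb, which also held Btnl2 and Btnl1. Of all 37358 stretches between neighbouring replicated peaks 8.27% were at least as long. Such shares count stretches and not bases, and a gene falls more readily in a long stretch than in a short one. They therefore do not measure how unusual the place of a gene is. H2-Q6, H2-Q7 and H2-Q10 sat with Pou5f1 in a stretch of 135.7 kb, and H2-Q1 and H2-Q2 in another of 76.9 kb. The 6 H2-M10 genes with H2-M1, H2-M9 and H2-M11 filled a stretch of 563.1 kb, a length reached by 2.59% of stretches. H2-M2 lay in 296.9 kb with 12 olfactory receptor entries.

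The whole interval from H2-K1 to H2-M2, 3487.5 kb, held 197 replicated peaks, or 5.65 per 100 kb against 1.37 over the assembled chromosomes. By length it was thus rich in peaks outside the unmarked groups, a count that does not allow for gene density. The interval held 173 protein-coding genes, against 21938 in 2725521 kb over the chromosomes. Of these, 85 were marked in the interval and 11037 over the chromosomes. The D and Q interval of 211.8 kb held 4 peaks and the T interval of 184.6 kb held 12. Of the 137 other protein-coding genes in the interval 71 were marked, or 51.8%, with none of the 19 olfactory receptor genes among them.

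**Figure D4:**
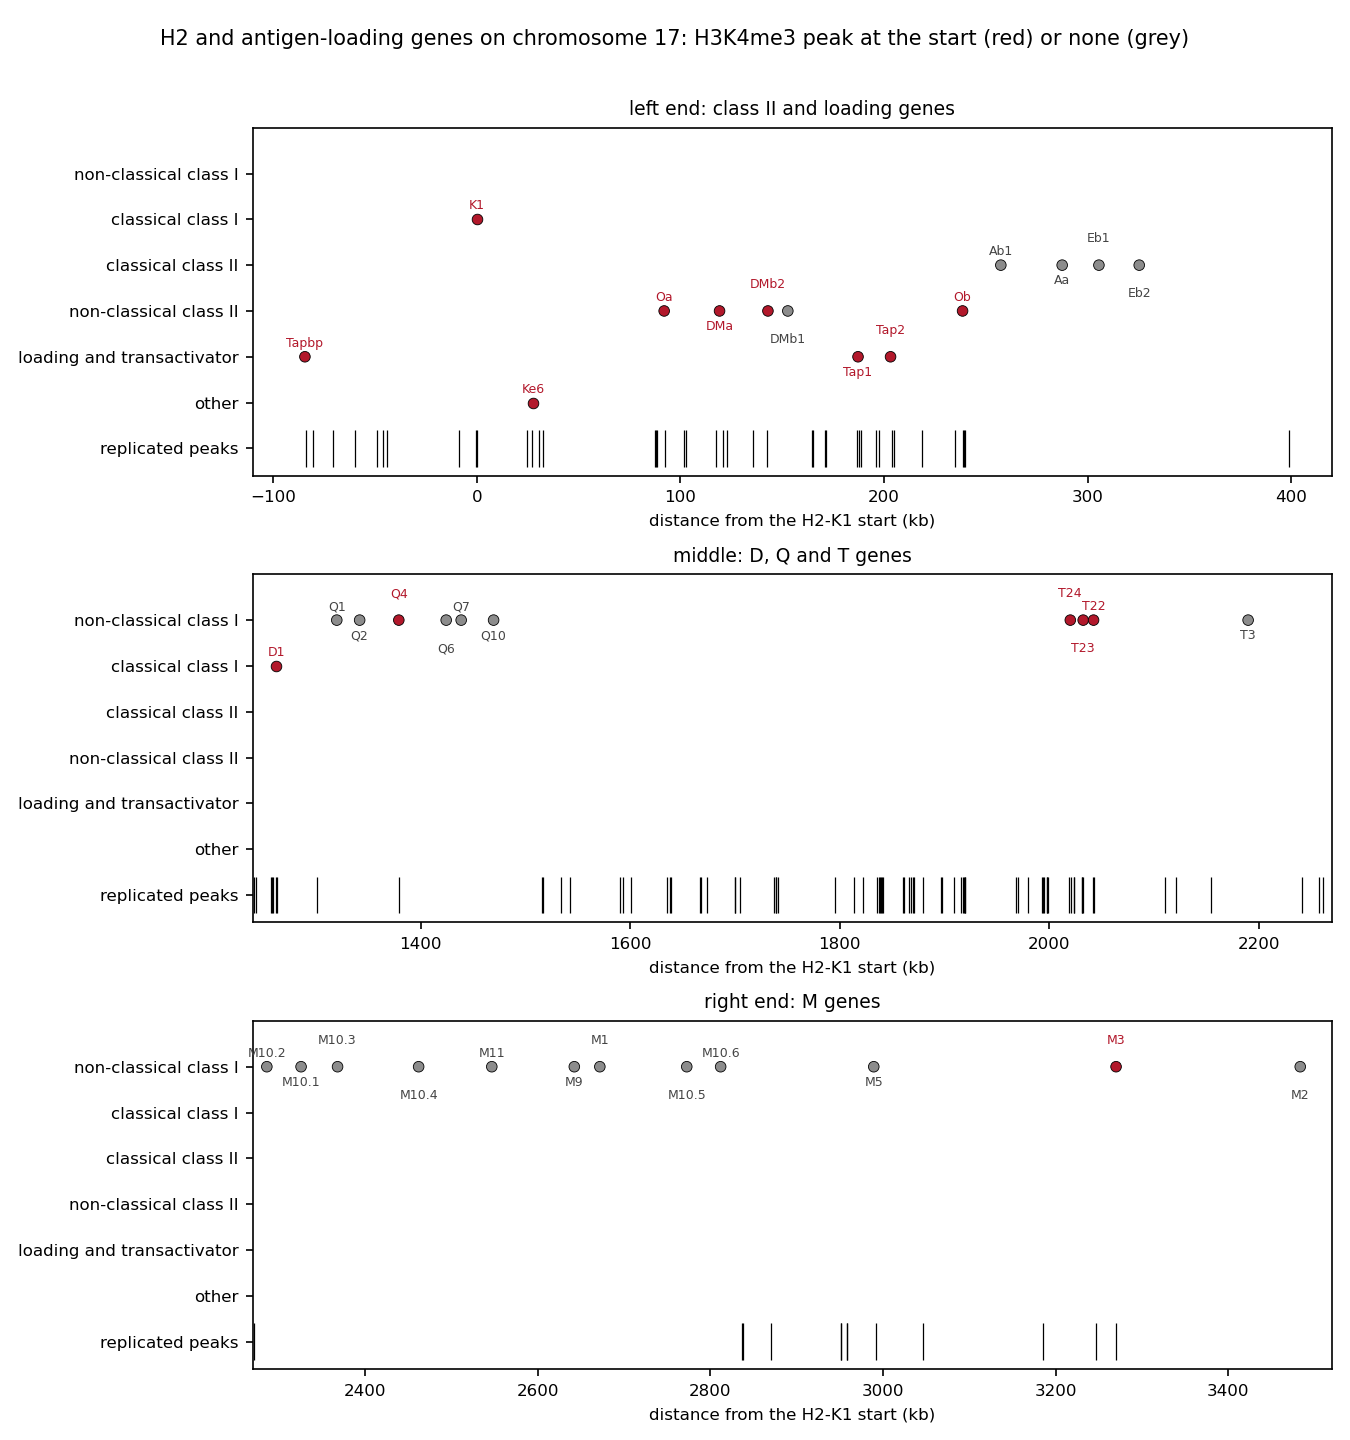
Map of the 37 genes on chromosome 17 by distance from the H2-K1 start in kb, in 3 panels that leave out most of the stretch between H2-Eb2 and H2-D1, with a row for each class, red for genes with a replicated peak at a start and grey for genes without. Black ticks are the replicated peaks: none falls at the classical class II genes or among the H2-M10 genes, while ticks are dense around H2-DMa, Tap1 and the marked T genes.

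Other genes of both pathways were read from lists of known members. All 10 genes of class I peptide supply were marked, against 50.3% of all genes: the immunoproteasome subunits Psmb8, Psmb9 and Psmb10, the proteasome activators Psme1 and Psme2, the trimming enzyme Erap1, and Calr, Canx, Pdia3 and Tapbpl. By promoter class 4 of the 10 were high-CpG, 4 intermediate and 2 low, with 79.8%, 53% and 16.6% marked over all genes. Pdia3, a disulphide isomerase that works beside tapasin, had the strongest peak of these, with a signal of 26.9 and rank 132, in a peak shared with Catsper2, and Calr the weakest, with 11.5. Peaks were also shared between Psmb9 and Tap1, Psme2 and Rnf31, and Tapbpl and Vamp1, so Psmb9 and Tap1 are not separate cases.

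Of the 11 genes of class I transactivation and interferon gamma signalling 9 were marked, against 50.3% of all genes and 79.8% of those with high-CpG promoters, which 9 of the 11 had. The unmarked ones were Irf8 and Nlrc5, the class I transactivator, although 1 replicated peak lay elsewhere in the Nlrc5 gene. Jak1 had the highest signal of the 9 at 19.4, and Irf1 the lowest at 8.46. Both receptor chain genes, Ifngr1 and Ifngr2, were marked, at 11.8 and 13.2.

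The DNA-binding factors of class II promoters were marked in 7 of 7 cases, against 50.3% of all genes: Rfx5, Rfxap and Rfxank, which bind the X box, Nfya, Nfyb and Nfyc, which bind the Y box, and Creb1. Creb1 ranked 12 of 11037 with a signal of 32.04. Of the 4 class II processing genes found, the proteases Lgmn and Ctsl were marked, against 50.3% of all genes, while Ctss and Cd74, the invariant chain gene, were not. Cd74 had a peak at a start in replicate 2 alone, with a signal of 3.17 and a −log10 q of 1.30, and 1 replicated peak lay elsewhere in the gene. Of the 7 factor genes 6 had high-CpG promoters, a class with 79.8% marked over all genes, while Ciita and the 4 classical class II genes were low-CpG, with 16.6% marked.

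Of 10 class I-like genes on other chromosomes 3 were marked, against 50.3% of all genes and 16.6% of those with low-CpG promoters, which 7 of the 10 had. Cd1d1, which presents lipids to natural killer T cells, had a signal of 24.1 and rank 371. Mr1, which presents vitamin metabolites, had 12.7 and Mill2 had 12.4. Hfe, Fcgrt, Azgp1, Procr, Raet1e, Ulbp1 and Mill1 had no peak at a start.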

How the data were processed

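H3K4me3 ChIP-seq peaks of 2 MEL libraries were used as 4 deposited lists on mm10: 1 per replicate, 1 from both replicates pooled and 1 of replicated peaks. A deposited list on mm9 was not used. Per the notes deposited with the samples, the first 3 lists were made from alignments and a control, and the replicated list from those 3. Not given in the sources used here were aligner, caller, settings and replication rule. Per the format, the deposited signal value is a score per peak made by the authors. Each peak has a −log10 q and a −log10 p from the authors, and a summit offset.

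Transcript starts came from GENCODE M21. Domains, CpG classes and 32-base words were computed with Python 3.11.15, numpy 2.4.6, pandas 2.3.3 and numba 0.67.0, and window identity with biopython 1.88 by global alignment. The word counter and the peak assignment were tested on simulated data. With 1 group no test was made. Counts of marked genes were read against the share over all genes, or over those of the same promoter class. Genes were named by class, all 39 being given. The genes, lists and alternatives were chosen with earlier results of these data known. Alternatives covered the window, the start used, a q limit, the list and repeated words.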

Additional observations from a re-analysis of the deposited data

How the results depend on the processing

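All 39 calls were the same with windows of 500 or 2500 bp, from the 5′-most start alone, at a −log10 q of at least 5, in the pooled list, in each replicate alone, and with each peak given to its nearest start only. For marked genes the pooled and replicate lists are no independent check, because the replicated list was made from them. Restricting to promoters with under 10% of repeated words left 3 of 10 non-classical class I genes marked in place of 5 of 22, and no classical class I gene, so that class had no value there. The median domain of the marked genes, 1484.5 bp, became 954.5 bp when peaks were not merged and the strongest was measured. No paired analysis was possible because the study has 1 group. Read depth is unknown, so the smallest detectable peak is too.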
